A study of Homo sapiens with 2 samples.

Results

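EGFR, IGF1R, ABL1, ABL2, FYN and YES1 encode tyrosine kinases, and their mRNAs were followed through the list of peaks obtained from 1 catenin immunoprecipitation (IP). They were chosen by gene symbol as 6 of the 1658 symbols with a peak, and for each symbol the transcript with the most summed tags was used. On these transcripts the 6 genes had 12 of 2440 peaks and 965 of 133739 tags, or 0.722%. A tag is a sequenced read that the authors assigned to a peak, and the fold is the enrichment that the authors' peak caller gave for a peak.

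Both libraries of the series, 2 in all, came from MDA-MB-231, a widely used line of human breast cancer cells with a triple-negative, mesenchymal character. The catenin IP library holds RNA recovered in the catenin IP (its title writes B-catenin), and the input library is its counterpart; neither label names a treatment or a genetic change. The study set out to find long noncoding RNAs bound by catenin. Only the IP peak list was analysed here, so every value below comes from 1 library, has no replicate error and allows no test between conditions. Because the peak list holds only RNAs that passed the authors' threshold, a gene without a listed peak may still be expressed and recovered. Of 9 mesenchymal and basal genes of this cell type other than EGFR, 2 had a peak, FN1 and ZEB1, the latter with only 17 tags. VIM and CD44 were not listed, nor was any of 10 luminal or 8 immune and blood genes. No rate of peaks among human genes in general was worked out, so these counts do not test cell identity.

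Tyrosine kinases add phosphate to tyrosine residues of other proteins. Receptors of this class, such as EGFR and IGF1R, span the plasma membrane, bind a growth factor outside and pass the signal inward through adaptors to the RAS, PI3 kinase and STAT branches. ABL1 and ABL2 are cytoplasmic kinases that act on the actin cytoskeleton, and FYN and YES1 belong to the SRC family, which sits at the inner face of the membrane and at cell contacts. Beta-catenin itself is a phosphorylation target of several of these kinases, and EGFR is commonly abundant in triple-negative breast cancer cells.

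ABL2 ranked highest of the 6 by tags, fold and tags per kb, with 521 tags and a highest fold of 45.73. EGFR had 318 tags but a fold of only 11.39. The other 4 genes each had a single peak of 27 to 34 tags, with folds of 13.31 in YES1, 10.86 in ABL1, 6.37 in IGF1R and 4.19 in FYN. The median gene of the whole list had 41 tags and a fold of 7.56, so 2 of the 6 lay above the median by tags and 4 by fold. A fold of at least 10 was reached by 4 of the 6, where 30.3% of all genes with a peak (503 of 1658) reached it. The kinases had been picked with earlier results of these data known, and EGFR and ABL1 lie close to that limit, so this count is a description only.

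**Figure D1:**
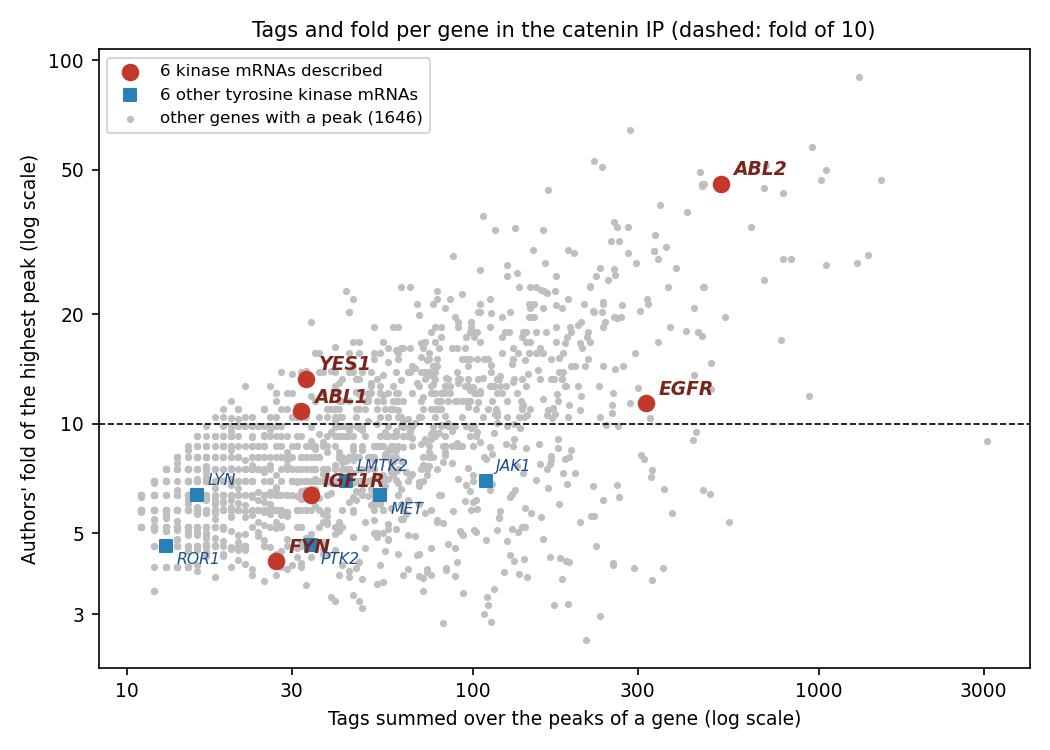
Tags summed over a gene's peaks (x axis, log scale) against the authors' fold of its highest peak (y axis, log scale), 1 point per gene. The 6 kinase mRNAs described (red) range from FYN, with 27 tags at a fold of 4.19, to ABL2, with 521 tags at 45.73; the 6 other tyrosine kinase mRNAs (blue) all lie below the dashed line at a fold of 10, and the 1646 remaining genes are grey.

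EGFR, the receptor for epidermal growth factor, carried 4 peaks along ENST00000275493, from nt 2 to nt 8631. Peaks covered 90.4% of this 8630-nt span, and the gaps between them measured 189, 69 and 570 nt. The opening peak (nt 2 to 1988) held 79 tags at a fold of 10.42, and the next one (nt 2178 to 5738) held 173 tags at 11.39. Further downstream, nt 5808 to 6916 held 35 tags at 10.49, and nt 7487 to 8631 held 31 tags at 10.46. All 4 EGFR peaks thus had folds between 10.42 and 11.39. Their densities from upstream to downstream were 39.8 (exact Poisson interval 31.5 to 49.6), 48.6 (41.6 to 56.4), 31.6 (22.0 to 43.9) and 27.1 (18.4 to 38.4) tags per kb of peak. Between the upstream and the downstream pair, the intervals were apart for the peaks at 48.6 and 27.1 and overlapped in the other 3 comparisons. The peak of nt 2178 to 5738 alone held 54.4% of the gene's tags. The authors' region labels ran in the order of an mRNA, with 5' untranslated plus coding in front, 3' untranslated plus coding next and 3' untranslated alone in the last pair.

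IGF1R, the receptor for insulin-like growth factor 1, had 1 peak at nt 1489 to 3083 of ENST00000268035, labelled coding. It held 34 tags (exact Poisson interval 23.5 to 47.5) at a fold of 6.37, with its summit near nt 2018. At 21.3 tags per kb it was the least dense of the 6 genes and ranked 1481 of 1658. No peak was listed upstream or downstream of this stretch, whereas EGFR had 4 peaks between nt 2 and nt 8631 of its transcript.

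**Figure D2:**
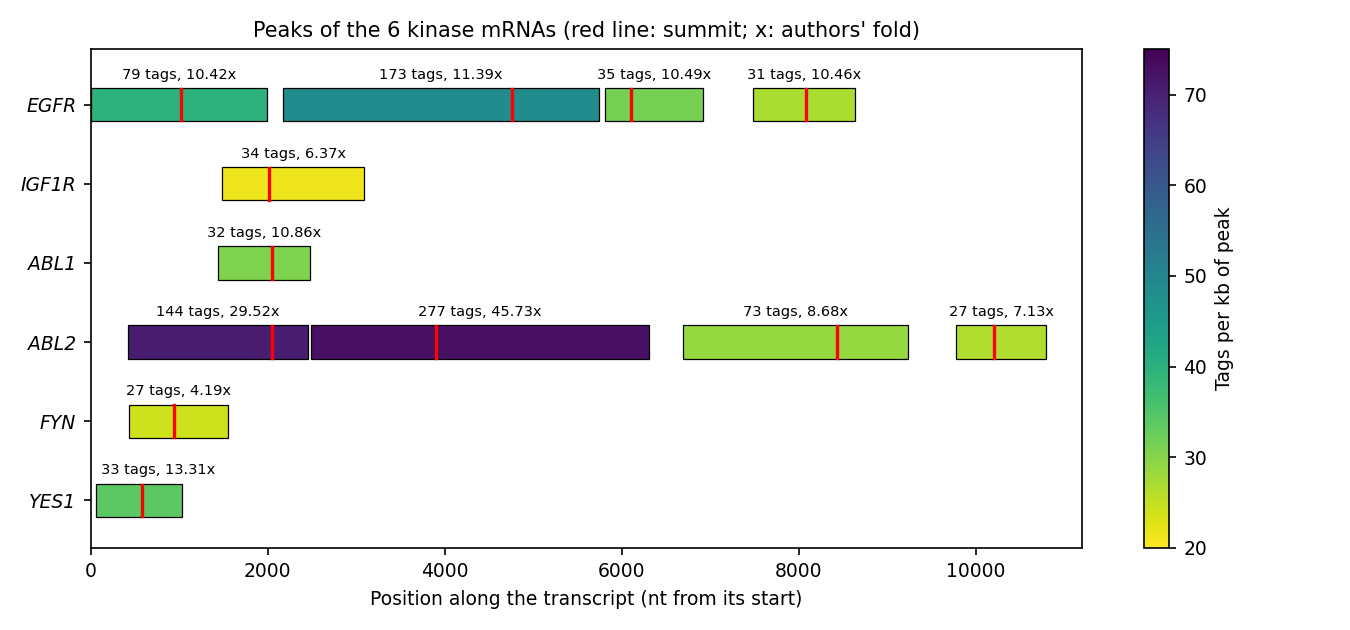
Peaks of the 6 kinase mRNAs as bars along the transcript used (x axis, nt from the transcript's start), coloured by tags per kb of peak, with a red line at the summit and the tags and the authors' fold printed above. The densest bars are the 2 upstream ABL2 peaks, at 70.6 and 72.7 tags per kb; the bars of IGF1R, ABL1, FYN and YES1 are single.

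ABL2, also called ARG, is a kinase with an actin-binding tail. Its transcript ENST00000502732 carried 4 peaks between nt 418 and nt 10796. The 2 upstream peaks, at nt 418 to 2456 and nt 2493 to 6304, held 144 and 277 tags at folds of 29.52 and 45.73. Only 36 nt separated them, and together they held 80.8% of the gene's tags. The peak at nt 6688 to 9235 held 73 tags at a fold of 8.68, and the one at nt 9780 to 10796 held 27 tags at 7.13. Tag density followed the same split, with 70.6 and 72.7 tags per kb upstream and 28.6 and 26.5 downstream. The counting interval of the densest peak, 64.4 to 81.7 tags per kb, did not overlap that of the peak at nt 6688 to 9235, 22.5 to 36.0.

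Within the whole list only 10 genes had a higher fold than ABL2, and it ranked 21 by tags. At least 4 peaks were listed for 59 genes, whose median was 178 tags and a fold of 13.89. Among these 59, ABL2 ranked 2 by tags and 3 by fold. EGFR, with as many peaks, ranked 12 by tags and 42 by fold. By tags EGFR thus lay in the upper part of these 59 genes and by fold in the lower part.

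ABL1, the paralogue of ABL2 and the kinase fused to BCR in chronic myeloid leukaemia, had a single peak at nt 1436 to 2476 of ENST00000318560. It was labelled coding and held 32 tags (interval 21.9 to 45.2) at a fold of 10.86. ABL2 had 4.21 times its fold and 1.80 times its tags per kb of peak, at 55.3 (50.7 to 60.3) in ABL2 and 30.7 (21.0 to 43.4) in ABL1. These intervals do not overlap, but they cover counting error in 1 library only. How reads that fit both paralogues were counted is not stated in the labels or the file.

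YES1 and FYN had similar tags and unlike folds. YES1 had 33 tags (22.7 to 46.3) at nt 57 to 1029 of ENST00000314574, and FYN had 27 (17.8 to 39.3) at nt 432 to 1552 of ENST00000354650. The counting intervals of the 2 SRC-family genes overlapped, both for tags and for tags per kb (33.9 in YES1 and 24.1 in FYN). Their folds were 13.31 and 4.19, placing YES1 at rank 271 and FYN at rank 1578 of 1658. The FYN fold depended on the transcript and was 5.54 to 6.37 on 4 of its 6, below that of YES1 on each. YES1 also had a fold above that of EGFR, which carried 9.64 times as many tags. The label of the YES1 peak was 3' untranslated alone, although it began 57 nt into the transcript.

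Ordered by tags per kb of peak, the genes ran ABL2 (55.3), EGFR (40.8), YES1 (33.9), ABL1 (30.7), FYN (24.1) and IGF1R (21.3), around a median of 29.8 over all genes with a peak. Of the 15 pairs, 7 had counting intervals that did not overlap. These were ABL2 against each of the others, and EGFR (36.4 to 45.5) against FYN (15.9 to 35.0) and IGF1R (14.8 to 29.8). YES1, ABL1, FYN and IGF1R could not be ordered by density at this depth.

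The authors' fold moved in steps of 0.579 in 70.1% of the 2440 peaks, taking a step as met when the fold lay within 0.0051 of a whole number of steps. Of the 12 kinase peaks 6 lay on these steps: both upstream ABL2 peaks and the ABL2 peak at a fold of 8.68, the opening EGFR peak, and the peaks of IGF1R and YES1. The ABL2 maximum equalled 79 steps, that of YES1 23 and that of IGF1R 11. The other 6, namely the peaks of ABL1 and FYN, the last ABL2 peak (fold 7.13) and the remaining 3 of EGFR, lay off the steps. Folds on and off the steps may not have the same denominator, and neither the labels nor the file describe it. On the transcripts used, the fold comparisons of ABL2 with ABL1 and of YES1 with FYN and EGFR each set a fold on the steps against one off them.

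Each gene was listed on 2 to 6 transcripts, 21 in all, and the choice of transcript bore on some genes only. IGF1R (2 transcripts), ABL1 (2) and YES1 (3) had the same peak on every transcript, with equal length, tags and fold at shifted positions. For ABL2 the 4 transcripts held 144 to 521 tags with folds of 29.52 or 45.73. Its 2039-nt peak with 144 tags recurred on 3 of them, starting at nt 151, 181 and 418. On ENST00000344730 a single peak of 5578 nt with 420 tags (nt 214 to 5791) had the fold of 45.73 that the peak of nt 2493 to 6304 had on ENST00000502732.

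The 4 EGFR transcripts held 69 to 318 tags and folds of 9.84 to 12.85. On ENST00000454757 the peak downstream of the 189-nt gap was shorter, 2362 nt with 103 tags, yet its fold of 12.85 was above the 11.39 of its 3561-nt counterpart on ENST00000275493. Both edges of that gap were shifted by 66 nt between these transcripts. If the shift is constant, the shorter peak ends at nt 4539 of ENST00000275493, and the 1199 nt beyond it added 70 tags. That is a density of 58.4 per kb against 43.6 in the shorter peak. Counting intervals were not computed for these densities, so they are not ranked. The summit of the longer peak, near nt 4761, lay in that added stretch, and that of the shorter peak near nt 2973.

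FYN varied most in form, with a peak of different length on each of its 6 transcripts. Summit offsets of 399 and 514 nt from the peak start each recurred on more than 1 transcript. Whether the peaks mark the same stretch with different edges was not tested. These peaks held 17 to 27 tags, began at nt 8 to 455 and had folds of 4.19 to 6.37. Transcripts with the most tags had the lowest folds: the pair with 27 tags stood at 4.19 and 4.56, and the one with 17 tags at 6.37. Their densities stayed between 22.2 and 24.9 tags per kb. FYN was also the lowest of the 6 by the authors' score, whose listed minimum is 30, with 36.5 on the transcript used and 56.34 at most.

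**Figure D3:**
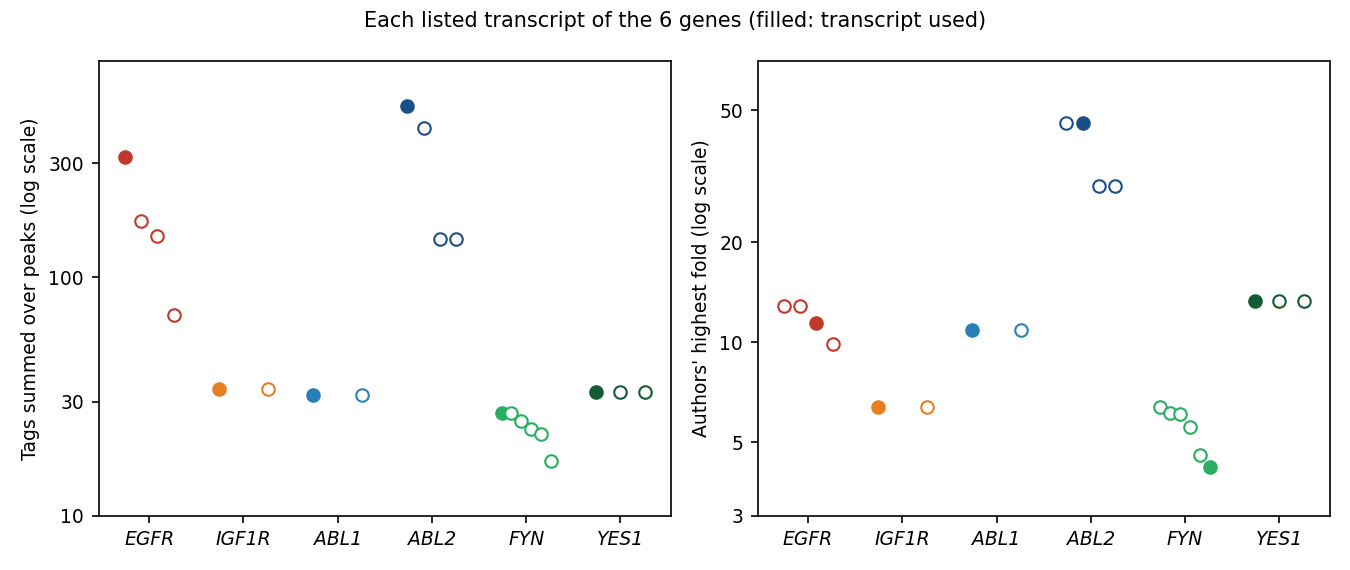
Tags summed over the peaks (left, log scale) and the authors' highest fold (right, log scale) for each listed transcript of the 6 genes, 1 circle per transcript, filled for the transcript used. Circles of IGF1R, ABL1 and YES1 are level, those of EGFR span 69 to 318 tags and those of ABL2 144 to 521, and the filled FYN circle is the lowest of 6 by fold, at 4.19.

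Region labels could not be used to place the ABL2 peaks. In ENST00000502732 they ran from 3' untranslated alone, in the 2 upstream peaks, to coding alone in the last peak, the reverse of an mRNA. The peak with 144 tags was labelled 3' untranslated on this transcript and coding on both other transcripts that carry it. In the whole list 299 of 1237 peaks found on several transcripts (24.2%) had more than 1 label. Of 78 transcripts with both a 3' untranslated-only and a coding-only peak, 40 had the 3' untranslated one upstream. The label order in EGFR and the coding labels of IGF1R and ABL1 are therefore given as listed, and were not checked against a sequence.

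Among 90 tyrosine kinase genes, 12 had a peak: 5 of 58 receptors and 7 of 32 non-receptor kinases. Besides the 6 described, those listed as receptors were MET (hepatocyte growth factor receptor; 54 tags, fold 6.37), LMTK2 (43 tags, 6.95) and ROR1 (a Wnt5a receptor; 13 tags, 4.63). LMTK2 is placed there by the list, and no ligand is taken as known for it here. The non-receptor kinases were JAK1, which serves cytokine receptors (109 tags, 6.95), the focal adhesion kinase gene PTK2 (34 tags, 4.65) and the SRC-family gene LYN (16 tags, 6.37). Of 8 genes of the SRC family 3 had a peak (FYN, YES1 and LYN), and SRC itself was not listed. For want of a rate of peaks among human genes in general, the counts per list, here and below, are not read as many or few. The lists had also been chosen with earlier results known. ABL2, YES1, EGFR and ABL1 had folds above all 6 of the further kinases, whose folds ran from 4.63 to 6.95, while IGF1R and FYN did not. The median fold was 11.1 over the 6 described and 6.37 over the 6 further kinases (7.56 over all genes); the 6 had been chosen with results known.

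MET, LMTK2 and JAK1 had several peaks, as EGFR and ABL2 did. MET had 3 between nt 897 and nt 3293 of ENST00000397752, with 14, 26 and 14 tags. JAK1 had 2 between nt 163 and nt 4382 of ENST00000342505, with 35 and 74 tags. The densest of these peaks, that of MET at nt 1700 to 2555 with 30.4 tags per kb, lay among the downstream peaks of EGFR (31.6 and 27.1) and ABL2 (28.6 and 26.5), and the JAK1 peak of 74 tags held about as many as the ABL2 peak of 73.

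The genes around these kinases gave 33 of 104 with a peak, 10 of them at a fold of at least 10. These 10 made up 30.3% of the 33, the same share as among all genes with a peak (30.3%). Their median fold was 7.52 and their median 46 tags, near the 7.56 and 41 of all genes. Of 9 ligand genes TGFA (transforming growth factor alpha; fold 6.04, 18 tags) and EREG (epiregulin; 5.57, 29 tags), both EGFR ligands, had a peak, and no IGF gene did.

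Adaptor and docking genes had a peak in 7 of 20 cases. CRK, an adaptor that ABL kinases phosphorylate, led them at a fold of 14.95 with 74 tags, followed by EPS15, an endocytic substrate of EGFR (11.58, 53 tags), and GAB2 (8.68, 16 tags). EPS8, FRS2, ABI2 and SH3KBP1 had folds of 5.82 to 7.52, the last with 103 tags. In the RAS branch 3 of 14 had a peak, namely the exchange factors SOS2 (9.26, 19 tags) and SOS1 (5.21, 15 tags) and the GTPase-activating protein RASA1 (9.26, 25 tags). TSC2, of the PI3 kinase branch, stood at a fold of 7.52 with 16 tags, the phospholipase gene PLCG1 at 4.92 with 17 and STAT3 at 3.12 with 48.

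Receptor regulators and phosphatases had a peak in 5 of 21 cases. IGF2R, which clears insulin-like growth factor 2 from the cell surface, stood at a fold of 21.42 with 146 tags in 4 peaks, and PTPN11, the phosphatase SHP2 that acts downstream of many receptors, at 17.94 with 216 tags. CBL, the ubiquitin ligase of activated EGFR, stood at 8.68 with 19 tags, and the phosphatase genes PTPN12 and PTPRF at 5.98 and 4.63. IGF2R thus had 4.29 times the tags of IGF1R, and their densities were 30.2 and 21.3 tags per kb.

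Cytoskeletal and junction genes had a peak in 11 of 19 cases, 6 of them at a fold of at least 10, which 30.3% of all genes with a peak reached. TLN1 (talin) led at 64.25, followed by the GTPase-activating proteins ARHGAP5 (15.05) and ARHGAP35 (13.31), of which ARHGAP35 is a known substrate of ABL2 and SRC. EZR (ezrin), a substrate of EGFR, stood at 12.55 with 300 tags, WASL at 11.69 and WASF2 at 10.18. CTTN (cortactin), a substrate of ABL2 and SRC-family kinases, had 130 tags at a fold of 6.41. CTNNB1, the beta-catenin mRNA, had a fold of 8.99 with 3078 tags, the most of any gene in the list. VAV2 stood at 6.95 and CTNND1, whose product p120 catenin was found as a SRC substrate, at 9.26.

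**Figure D4:**
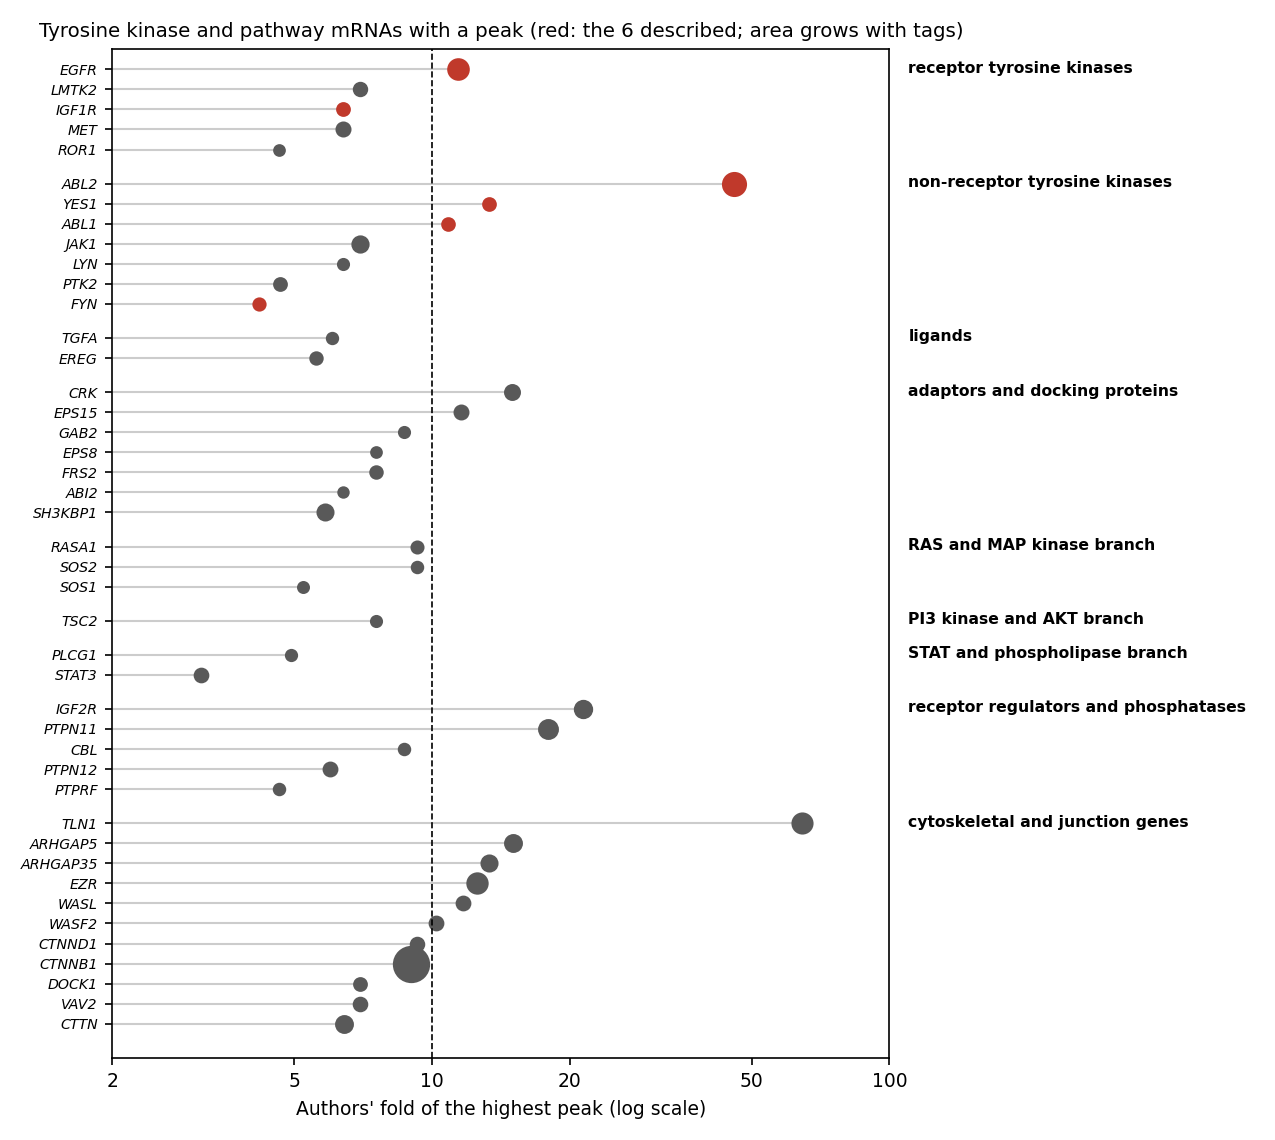
The authors' fold of the highest peak (x axis, log scale, dashed line at 10) for the tyrosine kinase and pathway genes with a peak, grouped by role, with larger points for more tags. ABL2 at 45.73 and TLN1 at 64.25 lie farthest right, and the plotted genes of the ligand, RAS, PI3 kinase and STAT groups lie left of the line.

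By the KEGG pathways that the authors joined to the list, the 6 genes fell into overlapping groups. EGFR, IGF1R, FYN and YES1 were placed in the adherens junction pathway, among 27 genes with a peak. The median fold of these 4 was 8.88 and that of the other 23 genes 8.99. EGFR, ABL1 and ABL2 were placed in the ErbB pathway, among 16 genes. The other 13 of that pathway had a median fold of 6.37 and a median of 19 tags, and CRK was the highest of them. The number of pathways per gene ran from 33 for EGFR to 3 for ABL2 and 2 for YES1, so such placement follows how much is annotated for a gene.

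By tags, fold and tags per kb together, the 3 nearest genes to ABL2 over the whole list were PLEC (plectin; 453 tags, fold 49.2), CHD8 (348 tags, 39.94) and SRRM2 (416 tags, 38.2). Nearest to EGFR were RIF1 (255 tags, 12.16), RBMS2 and CHD1. YES1 had an almost exact match in CRACR2A, with 33 tags at a fold of 13.31 and 33.3 tags per kb. KLHL11, RERE and ANKRD28 were nearest to ABL1, FOXN3, ATAD5 and ANK2 to IGF1R, and DNM1L, NEDD1 and FOSL2 to FYN. Likeness here is the distance between log2 values, each divided by its SD over the 1658 genes, in 1 library.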

How the data were processed

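Tags are whole-number counts per peak as deposited by the authors, and the fold is the ratio given by the authors' peak caller, per the file headers. A score per peak, also deposited by the authors, has lost its column name, and its meaning is not stated. It was used as a filter and to describe FYN. Start, end and summit are nucleotides along Ensembl transcripts, per the file headers; the summit never exceeded the peak's length and was read as an offset from the start. The submitters' processing notes name the build hg18. The labels and the file name no aligner, peak caller, annotation or background library, and library depth is unknown.

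Per symbol the transcript with the most summed tags was used, ties going to the lowest identifier. Tags per kb are tags over summed peak length. Poisson intervals are exact at 95% and cover counting error only. The step of the fold was sought between 0.5 and 1.0. Members and lists were chosen with earlier results of these data known. Genes with a peak in a list were named, or the 10 with the most tags, apart from a few that are not reported here. All 90 kinase and 104 pathway symbols were found in the RefSeq table (GRCh38.p14), used for names only. No sequence along the transcripts was used here. Scripts were tested on simulated data; python 3.11.15 with scipy 1.17.1 was used.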

Additional observations from a re-analysis of the deposited data

How the results depend on the processing

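No paired analysis was possible because IP and input are 1 library each and values were available for the IP only. The 6 genes had a peak, and 4 of them a fold of at least 10, with the transcript of highest fold, with a score of at least 50 and with a fold of at least 5. The FYN peak described above, with a score of 36.5 and a fold of 4.19, met neither minimum. Under either minimum FYN stayed listed only through other transcripts, the one then used having 25 tags at a fold of 5.54. Over all genes, 526 of 1658 (31.7%) reached a fold of 10 with the transcript of highest fold. The share was 504 of 1186 (42.5%) at the score minimum and 502 of 1494 (33.6%) at the fold minimum. With the transcript of most tags and no minimum it was 503 of 1658 (30.3%). Of 90 kinases 9 had a peak at the score minimum and 10 at the fold minimum, and of 104 pathway genes 23 and 30. Under 5 settings per gene (those 3, and the lowest and highest listed transcript), 5 of 30 tag values left the counting interval and 3 of 30 folds moved by over 1.5 times, all in EGFR, ABL2 and FYN: with the transcript of highest fold EGFR had 172 tags and FYN 17 at a fold of 6.37, and the lowest values were 69 tags for EGFR and 144 tags at 29.52 for ABL2. Single peaks of 27 to 34 tags limit IGF1R, ABL1, FYN and YES1.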
